A study of Mus musculus with 6 samples.

Results

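The Slc25 genes encode the mitochondrial carriers, the largest family of small-molecule transporters in the cell. The members described here are the 45 rows of the deposited gene table whose symbol is Slc25a followed by a number, out of 15953 genes. Genes of the family under other symbols, such as Ucp2, Mtch1 and Mtch2, are left out of the family sums, shares and ranks. RNA was sequenced from liver of C57BL/6 mice that were wild type (3 samples) or carried a knockout of Cgref1 (3 samples), a gene for a secreted protein with calcium-binding motifs. The labels name hepatocytes as the cell type and the design text names liver tissue. The sources used here give no age, sex, feeding state or time of collection and do not name the kind of Cgref1 allele. The labels call the samples biological replicates without saying how they were obtained, and p-values measure the spread between these samples.

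Most Slc25 proteins sit in the inner membrane of mitochondria, where each exchanges or imports a small set of solutes such as ADP and ATP, phosphate, citrate, aspartate, ornithine, acylcarnitines, coenzyme A or iron. They are built from repeated pairs of membrane helices and are inserted by a dedicated import complex. In hepatocytes they join steps of the urea cycle, gluconeogenesis, fatty acid synthesis and fatty acid oxidation that are split between mitochondria and cytosol.

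Library totals were 17627734 to 18366443 expected counts, and Slc25 genes took 0.346% to 0.398% of them. Of the 45 genes, 39 passed the filter on low counts that left 12033 genes for the test. Cgref1 itself had counts of 7, 7 and 19 (wild type) against 7, 12 and 10 (knockout), with a log2 fold change of -0.11 (SE 0.50, 95% interval -1.23 to 1.01), so its level did not check the labels and the groups are called wild type and knockout-labelled. Hepatocyte markers summed to 68848 to 91600 TPM in the 6 libraries, where TPM is a transcript's length-corrected share of its library, and 3 skeletal muscle and heart genes in the table (Acta1, Ckm and Tnnt3) were at 0.18 TPM or below. Genes of the intestine differed between libraries. The 7 listed summed to 220.3, 132.5 and 216.4 TPM in wild type and 125, 127 and 97.96 TPM in knockout-labelled libraries. Most of this came from Fabp2, found in all 6 libraries. Counts in wild type were 44, 0 and 32 for Reg3b, 8, 1 and 22 for Krt20, 33, 2 and 6 for Sis and 0, 0 and 5 for Cdx1. Each of these had 0 in every knockout-labelled library. Vil1 had 15, 1 and 18 against 0, 0 and 3, and Lgals4 33, 47 and 75 against 39, 24 and 24. In these bulk samples, fewer cells of a type and less RNA per cell cannot be told apart.

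Slc25 transcripts summed to 2583, 2750 and 2920 TPM in wild type and to 2736, 2422 and 2697 TPM in knockout-labelled livers, with means of 2751 ± 169 and 2618 ± 171 (SD, n = 3). The groups overlapped, and the log2 ratio of the means was -0.07 in TPM. The direction depended on the unit: the same sum in CPM, the counts as a share of library totals scaled by TMM factors, was 3632 ± 178 in wild type and 3769 ± 107 in knockout-labelled livers, a log2 ratio of 0.05. TPM corrects for gene length and is used here for levels compared between genes, and CPM for differences between genotypes.

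The family was dominated by a few carriers. The top 3 genes of each library held 42% to 46.8% of the family's TPM and the top 5 held 60.5% to 63%. Between 22 and 24 genes of a library reached 10 TPM, and 35 to 37 reached 1 TPM. By substrate, the carriers of adenine nucleotides and phosphate held 33.8% of the summed TPM averaged over libraries, the carriers of amino acids and glutathione 26.8%, the carriers of di- and tricarboxylates 13.7%, and the carriers of cofactors and pyrimidine nucleotides 6.42%. The carnitine carrier held 3.32%, the mitoferrins 1.23% and the carriers related to uncoupling proteins 0.411%. Ucp2, left out by the symbol rule, had 25.6, 35.5 and 35.6 TPM in wild type and 33.6, 31.2 and 30.6 TPM in knockout-labelled libraries. Mtch2, also left out, had 194, 173 and 171 TPM in wild type and 170, 152 and 152 TPM in knockout-labelled libraries. Genes given no substrate here held 14.4%, and Slc25a47 made up 86.1% to 91.2% of their TPM in each library.

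**Figure D1:**
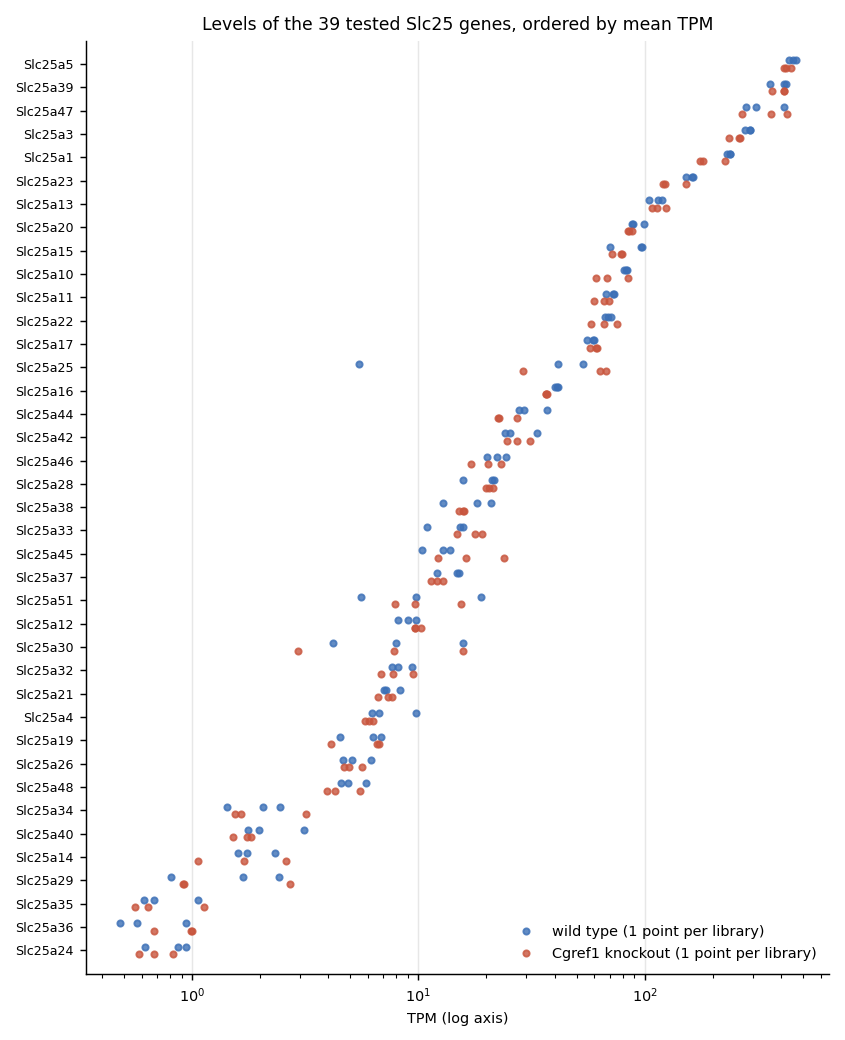
Level of each of the 39 tested Slc25 genes in TPM on a log axis, ordered by the mean over 6 libraries, with each point 1 library and the genotypes in separate colours. Slc25a5 leads with a mean of 439 TPM, and the points of the 2 genotypes overlap for most genes.

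Slc25a5 (chrX:36795651-36798807, plus strand, GRCm38), an adenine nucleotide translocase that exports ATP from mitochondria in return for ADP, was the most abundant by mean TPM. Its level was 434, 455 and 465 TPM in wild type and 445, 414 and 423 TPM in knockout-labelled libraries. Its within-group SD on the log2 CPM scale, 0.02, was at the 0.125th percentile of all genes tested, so it was among the steadiest genes of the data set. Slc25a3 (chr10:91116574-91124059, minus strand), which brings in the phosphate that ATP synthesis needs, stood at 293, 277 and 292 TPM in wild type and 263, 235 and 261 TPM in knockout-labelled libraries. In TPM the groups of Slc25a3 did not overlap, while in CPM they did. Slc25a23, a calcium-regulated exchanger of ATP-Mg for phosphate, had 153, 162 and 164 TPM in wild type and 152, 121 and 123 TPM in knockout-labelled libraries.

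Slc25a39 (chr11:102402985-102407946, minus strand), which is needed for glutathione import into mitochondria, was rank 2 by mean. Its values were 359, 421 and 412 TPM in wild type and 412, 367 and 415 TPM in knockout-labelled libraries. The aspartate/glutamate carrier Slc25a13 (citrin), a part of the malate-aspartate shuttle that also supplies aspartate to the urea cycle, had 105, 115 and 119 TPM in wild type and 124, 114 and 108 TPM in knockout-labelled libraries. Slc25a15, which exchanges ornithine for citrulline in the urea cycle, had 97.4, 70.2 and 95.9 TPM in wild type and 78.5, 72.1 and 79.7 TPM in knockout-labelled libraries. Slc25a22, a glutamate carrier, had 66.8, 70.8 and 68.7 TPM in wild type and 75.5, 58.1 and 65.9 TPM in knockout-labelled libraries. Each of these 4 genes had overlapping groups in TPM.

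Slc25a1, the citrate carrier that exports citrate for fatty acid synthesis in the cytosol, led the di- and tricarboxylate carriers. Its values were 238, 232 and 238 TPM in wild type and 226, 182 and 175 TPM in knockout-labelled libraries, all lower than wild type in this unit; in CPM the groups overlapped. Slc25a10, which exchanges malate or succinate for phosphate, had 82.7, 80.7 and 83.4 TPM in wild type and 84.2, 61.1 and 68 TPM in knockout-labelled libraries. The 2-oxoglutarate/malate carrier Slc25a11, the other carrier of the malate-aspartate shuttle, had 72.3, 72.9 and 67.7 TPM in wild type and 65.9, 59.9 and 69.7 TPM in knockout-labelled libraries. Slc25a20, which carries acylcarnitines inward for fatty acid oxidation, had 87.6, 89 and 99.5 TPM in wild type and 87.6, 85.7 and 84.8 TPM in knockout-labelled libraries.

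Slc25a47 (chr12:108836046-108856815, plus strand), a carrier known for its expression in liver and assigned no substrate here, was rank 3 by mean. Its values were 280, 311 and 412 TPM in wild type and 362, 269 and 424 TPM in knockout-labelled libraries. Its rank within a library ran from 1 to 4, the widest among the 4 leading genes, and in knockout-labelled library 3 it stood above Slc25a5, at 424 against 423 TPM.

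Ranges over the 6 libraries separated few neighbours in the order of the genes. Of the 44 pairs of neighbours in the order, 40 had overlapping ranges over the 6 libraries. The 4 steps without overlap were Slc25a1 above Slc25a23, Slc25a13 above Slc25a20, Slc25a48 above Slc25a34, and Slc25a24 above Slc25a27. Within libraries the order held at more steps than these. Slc25a5 was above Slc25a39 in 6 of 6 libraries although their ranges overlapped, and Slc25a39 was above Slc25a47 in 5. Also holding in 6 of 6 libraries, with overlapping ranges, were Slc25a3 above Slc25a1, Slc25a23 above Slc25a13 and Slc25a22 above Slc25a17. The same held for Slc25a16 above Slc25a44, Slc25a42 above Slc25a46 and Slc25a28 above Slc25a38. Slc25a25 moved most in the order, from rank 10 to rank 30.

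At the foot of the order were 6 genes that did not pass the filter. Counts in wild type and then knockout-labelled libraries were 5, 4, 8 and 8, 4, 1 for Slc25a27, a carrier related to uncoupling proteins. They were 0, 5, 4 and 0, 3, 0 for Slc25a31, the adenine nucleotide translocase of germ cells. They were 1, 3, 2 and 1, 5, 3 for Slc25a53. In the same order they were 0, 0, 0 and 0, 3, 2 for Slc25a43, 2, 1, 0 and 0, 0, 0 for Slc25a2, a carrier of basic amino acids, and 1, 0, 0 and 0, 2, 0 for Slc25a18, a glutamate carrier. A count of 0 allows up to 3 counts, which is 0.159 to 0.175 CPM in these libraries, so no difference was detectable at this depth for these last 3 genes.

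Several substrates have more than 1 carrier gene, and in most of these pairs a single gene provided nearly all of the transcript. The pairs were chosen after the values were seen. The TPM ratio of Slc25a5 to Slc25a4, the adenine nucleotide translocase of heart and muscle, was 47.7 to 76.9 over the 6 libraries. Slc25a13 exceeded Slc25a12 (aralar), its partner of brain and muscle, by 11.1 to 13.2 times. Slc25a39 exceeded the related glutathione carrier Slc25a40 by 115 to 273 times. For the pyrimidine nucleotide carriers the ratio of Slc25a33 to Slc25a36 was 16.1 to 27.6, and for the ATP-Mg/phosphate carriers that of Slc25a23 to Slc25a24 was 172 to 247. The second glutamate carrier Slc25a18 and the second ornithine carrier Slc25a2 were listed at 0 in 4 libraries each, beside 58.1 TPM or more for Slc25a22 and 70.2 TPM or more for Slc25a15. The coenzyme A carriers were more even, with a ratio of Slc25a16 to Slc25a42 of 1.18 to 1.72.

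The mitoferrins, which import iron for haem and iron-sulphur cluster synthesis, were the one pair whose ratio did not overlap between the genotypes. Slc25a28 (mitoferrin 2; chr19:43663801-43674881, minus strand), the form of most tissues, had 15.8, 21.6 and 21.1 TPM in wild type and 21.4, 20 and 20.6 TPM in knockout-labelled libraries. Slc25a37 (mitoferrin 1; chr14:69241848-69285112, minus strand), the form known from developing red blood cells, had 12.1, 15.1 and 14.8 TPM in wild type and 12.8, 11.4 and 12.1 TPM in knockout-labelled libraries. Each gene alone had overlapping groups, while their ratio did not overlap: Slc25a28 over Slc25a37 was 1.31, 1.43 and 1.43 in the wild type livers against 1.67, 1.76 and 1.71 in those labelled knockout, with means of 1.39 ± 0.0689 and 1.71 ± 0.0485 (SD, n = 3). This is 1 of the 8 pairs (of 10) in which the ratio could be computed in every library, and among single genes 10.8% had no overlap in CPM, so the count is near that background. An exact permutation test of 3 libraries against 3 cannot go below p = 0.1, and no test was made because the pair was picked from these values. The 6 red blood cell markers summed to 6457, 7968 and 11318 TPM in wild type and 8238, 6891 and 4859 TPM in knockout-labelled libraries. These sums overlapped between groups. All 6 red blood cell genes had negative log2 fold changes (median -0.18, from -0.27 to -0.01). At an unadjusted edgeR p under 0.05 there were 0 of them. Kupffer cell markers summed to 179.9, 186.4 and 194.5 TPM for wild type against 205.9, 211.8 and 205 TPM for the knockout label. Stellate cell markers summed to 152.6, 146.2 and 193.9 TPM against 114.6, 118.1 and 132.9 TPM. Neither sum overlapped. All 6 Kupffer cell genes had positive log2 fold changes, 5 of them at an unadjusted edgeR p under 0.05. All 6 stellate cell genes had negative ones, 2 of them at that level, and 0 of either list were called. Of all genes tested, 2.95% had such a p in the higher direction and 2.2% in the lower. In TPM, 1.44% of single genes lay wholly higher and 15.3% wholly lower. Most of the stellate cell sum came from Dcn (130, 122 and 166 TPM against 95, 98.8 and 113 TPM). The part of these cell types in the ratio was not tested.

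**Figure D2:**
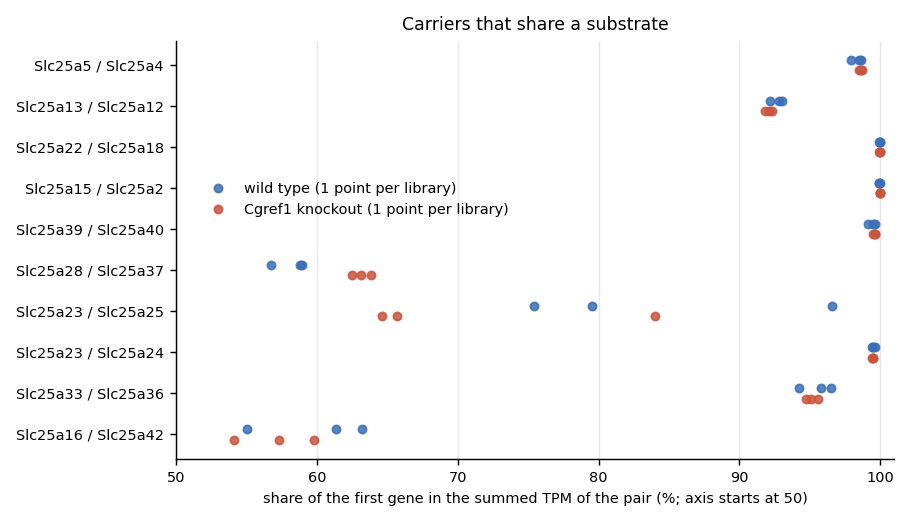
Share of the first gene in the summed TPM of each same-substrate pair, in percent, with each point 1 library. The first gene holds nearly all of most pairs, and for the mitoferrins the wild type libraries lie at 56.7% to 58.9% and the knockout-labelled libraries at 62.5% to 63.8%.

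No Slc25 gene passed the test between genotypes. With edgeR's quasi-likelihood test and Benjamini-Hochberg adjustment over all genes, 0 of 39 were called at an adjusted p of 0.05, where 0.00831% of all genes tested (1 of 12033) were called. DESeq2 called 0 Slc25 genes and 28 genes in all (0.233%). The smallest adjusted p of the family was 0.903, for Slc25a33. At an unadjusted p under 0.05 there were 3 Slc25 genes, 7.69% of 39, beside 5.15% of all genes tested, and all 3 were higher in knockout-labelled livers, beside 2.95% of all genes in that direction and 2.2% in the other. This turned with the scaling: with library totals the genes under 0.05 were 0 higher and 2 lower (Slc25a1 and Slc25a44), and with log2(TPM + 1) 0 higher and 3 lower (those and Slc25a23). In these settings the median log2 fold change over all genes was -0.08 and -0.11. The shares of all genes under 0.05 in these settings are not given here, so these counts have no background beside them. In the authors' deposited table the lowest q-value of the 45 genes was 0.741, for Slc25a45.

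As a group the carriers lay close to all other genes. Log2 fold changes ran from -0.30 to 0.83 with a median of 0.06, beside a median of -0.00 over all genes tested. The fold change was positive for 23 of 39 carriers (59%), beside 49.5% of all genes. This split turned with the scaling. With library totals in place of TMM factors it was 15 positive and 24 negative, and with TPM 13 positive and 26 negative. The all-gene median also moved, to -0.08 with library totals and -0.11 with log2(TPM + 1), beside -0.03 and -0.08 for the carriers. In CPM the groups did not overlap for 6 carriers (15.4%, background 10.8%), each higher in knockout-labelled livers (background for that direction 6.19%): Slc25a5, Slc25a12, Slc25a13, Slc25a17, Slc25a33 and Slc25a39. In TPM none of the 39 lay wholly higher (background 1.44%), and 5 lay wholly lower (12.8%, background 15.3%): Slc25a1, Slc25a3, Slc25a16, Slc25a23 and Slc25a44.

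By substrate, the 6 tested carriers of adenine nucleotides and phosphate had a median log2 fold change of -0.07, with 2 positive and 4 negative, and of -0.09 to -0.01 with 1 library left out. The 4 carriers of di- and tricarboxylates had a median of -0.04, with 1 positive and 3 negative. With library totals all 4 were negative (median -0.12), with log2(TPM + 1) likewise (-0.17), and without knockout-labelled library 2 the median was 0.01. The 9 carriers of amino acids and glutathione had a median of 0.04, which became -0.05 with library totals, -0.10 with log2(TPM + 1) and -0.02 without knockout-labelled library 3. The 9 carriers of cofactors and pyrimidine nucleotides had a median of 0.10, with 7 positive and 2 negative. Without wild type library 1 this became -0.01, with 4 positive and 5 negative, without knockout-labelled library 1 it was 0.20, and with library totals or log2(TPM + 1) it was 0.01. The 6 genes with no substrate assigned had a median of 0.15, with 4 positive and 2 negative, which became -0.14 without knockout-labelled library 1 (2 positive and 4 negative), -0.02 without wild type library 3 and 0.02 with log2(TPM + 1). The 2 mitoferrins had a median of 0.04, or -0.07 without wild type library 1. The 2 tested carriers related to uncoupling proteins had one of 0.05, and of -0.53 to 0.39 with 1 library left out. Both of these turned to -0.04 with library totals. The sign of 6 of these 7 medians thus depended on the scaling or on 1 library. Medians over all genes tested were themselves -0.08 with library totals and -0.11 with log2(TPM + 1). None of these medians was tested.

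The intervals bound how far the carriers could differ. For 24 of the 39 genes the 95% confidence interval of the fold change lay within 1.5-fold in either direction, and for 33 it lay within 2-fold. For Slc25a5 the log2 fold change was 0.06 (SE 0.09, interval -0.14 to 0.25), for Slc25a39 0.14 (SE 0.10, interval -0.08 to 0.36), for Slc25a1 -0.15 (SE 0.10, interval -0.38 to 0.08) and for Slc25a20 0.04 (SE 0.09, interval -0.16 to 0.24). The sign for Slc25a5 and Slc25a20 was negative with library totals or TPM. The 6 genes whose interval went beyond 2-fold were Slc25a25, Slc25a29, Slc25a30, Slc25a36, Slc25a45 and Slc25a51.

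**Figure D3:**
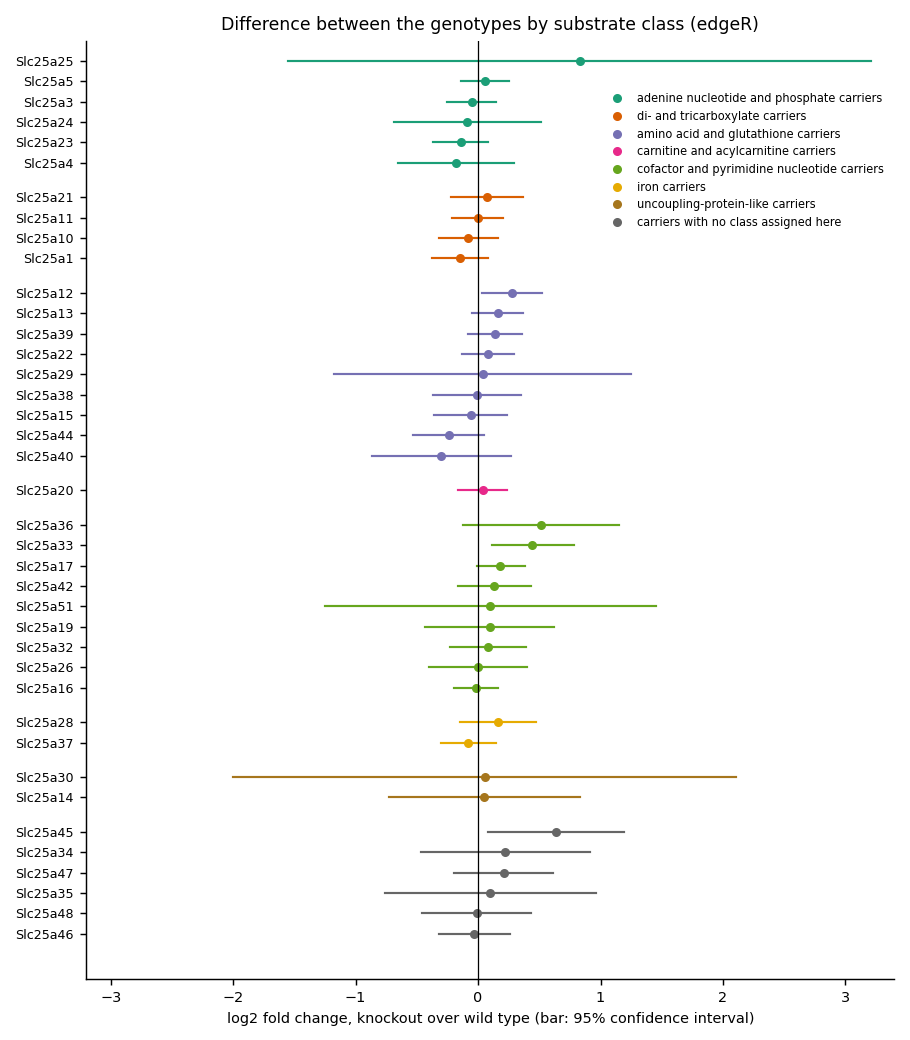
Fitted log2 fold change of each of the 39 tested Slc25 genes, knockout-labelled over wild type, by substrate class, with bars for the 95% confidence interval from edgeR. Points run from -0.30 to 0.83, none passed the adjusted threshold, and the widest bar is that of Slc25a25.

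Slc25a33 (chr4:149744036-149774277, minus strand), a carrier of pyrimidine nucleotides used in mitochondrial DNA and RNA synthesis, had the smallest p of the family. Its level was 13.5, 19 and 18.2 CPM in wild type and 24.5, 20.6 and 23.8 CPM in knockout-labelled libraries, without overlap, and its log2 fold change was 0.44 (SE 0.15, interval 0.11 to 0.78, edgeR adjusted p = 0.903). In TPM the groups overlapped, at 10.9, 15.8 and 15.2 for wild type against 19.1, 14.8 and 17.8 for the knockout label. Of its exonic bases 14.9% are shared with Gm13068 on the other strand, and the sources used here do not say whether counting used strand.

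Slc25a12 (chr2:71271063-71367749, minus strand) had 15.8, 18.2 and 16.8 CPM in wild type and 20.5, 21 and 20.1 CPM in knockout-labelled libraries, again without overlap. Its log2 fold change was 0.28 (SE 0.11, interval 0.03 to 0.52, edgeR adjusted p = 0.926). In TPM its groups overlapped, at 8.13, 9.74 and 9.02 for wild type against 10.3, 9.69 and 9.68 for the knockout label.

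Slc25a45 (chr19:5877808-5885878, plus strand), a carrier of the group with no substrate assigned here, had 12.6, 16.5 and 15.3 CPM in wild type and 15.4, 22.3 and 31.3 CPM in knockout-labelled libraries. The groups overlapped, and knockout-labelled library 3 was the highest. Its log2 fold change was 0.64 (SE 0.24, interval 0.08 to 1.19, edgeR adjusted p = 0.926), and 0.35 without that library. Slc25a36, the other pyrimidine nucleotide carrier, had 1.66, 1.91 and 3.11 CPM in wild type and 3.21, 2.62 and 3.69 CPM in knockout-labelled libraries, with overlap and a log2 fold change of 0.51 (SE 0.28, interval -0.12 to 1.15). Wild type libraries 1 and 3 had the most intestinal transcript. Without both, the log2 fold changes of Slc25a33, Slc25a12, Slc25a45 and Slc25a36 were 0.26, 0.16, 0.47 and 0.72. A single wild type library remains in that fit, so these values are effect sizes only.

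Carriers reaching an absolute log2 fold change of 0.5 at a mean of 1 CPM were 3 (7.69%, background 4.46%): Slc25a45, Slc25a36 and Slc25a25. Slc25a25 (chr2:32414487-32451445, minus strand), a calcium-regulated exchanger of ATP-Mg for phosphate, had the largest. It had counts of 216, 1658 and 2069 for wild type against 1116, 2667 and 2861 for the knockout label, or 11.9, 88.1 and 113 CPM against 65.1, 155 and 158 CPM. Library 1 was the lowest of each group, and the groups overlapped. The log2 fold change was 0.83 with an interval of -1.55 to 3.21 (SE 0.90, edgeR adjusted p = 0.988). It was 0.32 without wild type library 1 and 1.32 without wild type library 3.

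In TPM the highest library of Slc25a25 was 12.4 times the lowest, and its within-group SD of 1.34 on the log2 CPM scale was at the 99.9th percentile of all genes tested. The ratio of Slc25a23 to Slc25a25, both exchangers of ATP-Mg for phosphate, was thus 28.2 in wild type library 1 and 1.83 to 5.26 in the other libraries. Over the whole family the median within-group SD was 0.19, beside 0.18 for all genes, and the median percentile was 55. Besides Slc25a25, 3 of the 39 carriers lay at or above the 95th percentile: Slc25a30 at the 99.6th, Slc25a51 at the 98.5th and Slc25a29 at the 98.4th. These 3 were picked out after their values were seen.

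Slc25a30 (chr14:75760117-75787037, minus strand), a carrier related to uncoupling proteins, had 9, 17.2 and 4.53 CPM in wild type and 8.98, 19.6 and 3.53 CPM in knockout-labelled libraries. Library 2 was highest and library 3 lowest in each group, and the log2 fold change was 0.06 (SE 0.79, interval -2.00 to 2.11). Slc25a51, which imports NAD, had 17.4, 29.3 and 56.6 CPM in wild type and 25.1, 33.6 and 51.9 CPM in knockout-labelled libraries, with a log2 fold change of 0.10 (SE 0.52). Slc25a29, a carrier of basic amino acids, had 0.81, 1.68 and 2.43 TPM in wild type and 0.91, 0.92 and 2.71 TPM in knockout-labelled libraries. For Slc25a51 and Slc25a29 library 3 was the highest of each group.

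**Figure D4:**
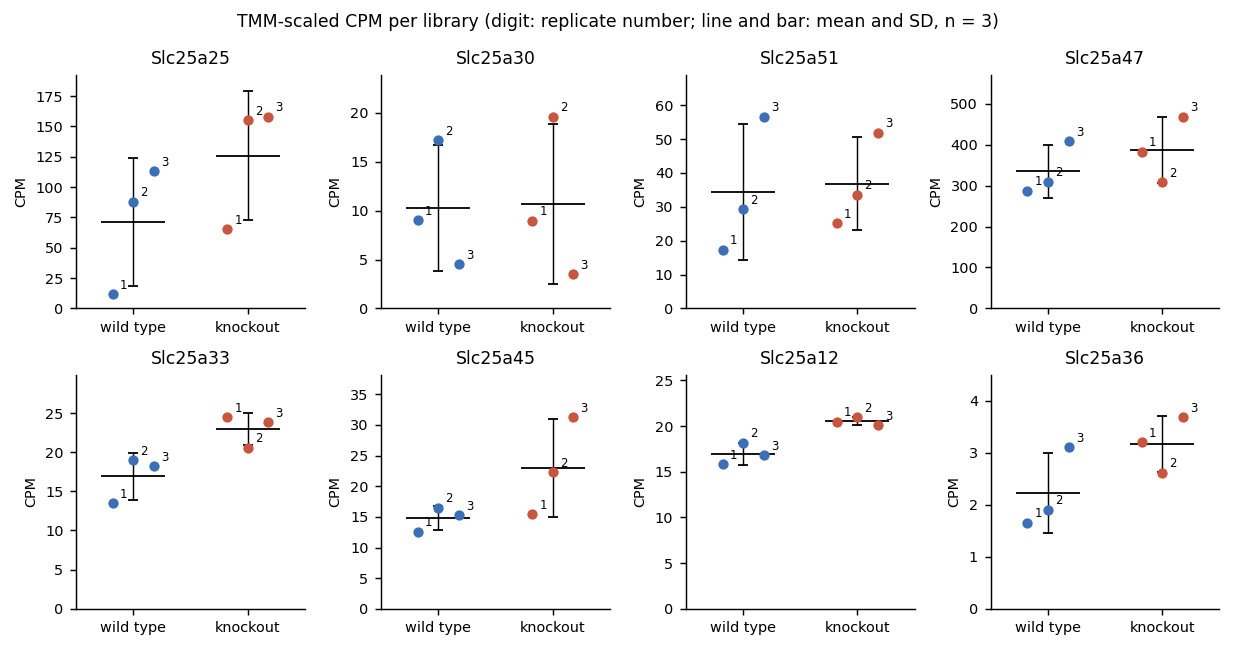
CPM of 8 Slc25 genes in each library, with digits for the replicate number and a line and bar for the mean and SD of 3 libraries. Slc25a25, Slc25a30 and Slc25a51 spread widely within both groups, and Slc25a33 and Slc25a12 are the 2 shown whose groups do not overlap.

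Genes of feeding and of the daily clock were looked up beside these carriers, in lists written after the values were seen; their part in the spread of Slc25a25 was not tested. Pck1, which encodes a key enzyme of gluconeogenesis, had 190, 706 and 1268 TPM in wild type and 1177, 1096 and 1382 TPM in knockout-labelled libraries. Sik1, a kinase gene induced by cAMP signalling, had 1.07, 3.17 and 5.55 TPM in wild type and 2.55, 3.83 and 6.24 TPM in knockout-labelled libraries. The clock repressor gene Nr1d1 had 99, 42.7 and 16.9 TPM in wild type and 55, 19.3 and 14.9 TPM in knockout-labelled libraries. Wild type library 1 was thus lowest for Pck1, Sik1 and Slc25a25 and highest for Nr1d1. The other listed genes were mixed. Among the 7 fasting and cAMP response genes it was lowest for 3 and highest for 1 (Crem), and G6pc (49.7, 37.2 and 306 TPM for wild type against 53.1, 113 and 182 TPM for the knockout label) and Igfbp1 (5.75, 2.01 and 12 TPM against 14.8, 9.26 and 17.6 TPM) were lowest in wild type library 2. Among the 11 clock genes it was lowest for 6 and highest for 4, ties included. Another clock gene, Per1, had 2.36, 8.32 and 11.2 TPM in wild type and 8.4, 5.89 and 7.39 TPM in knockout-labelled libraries. Of the 18 listed genes Nr4a1 was not tested, and none of the others passed the test.

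**Figure D5:**
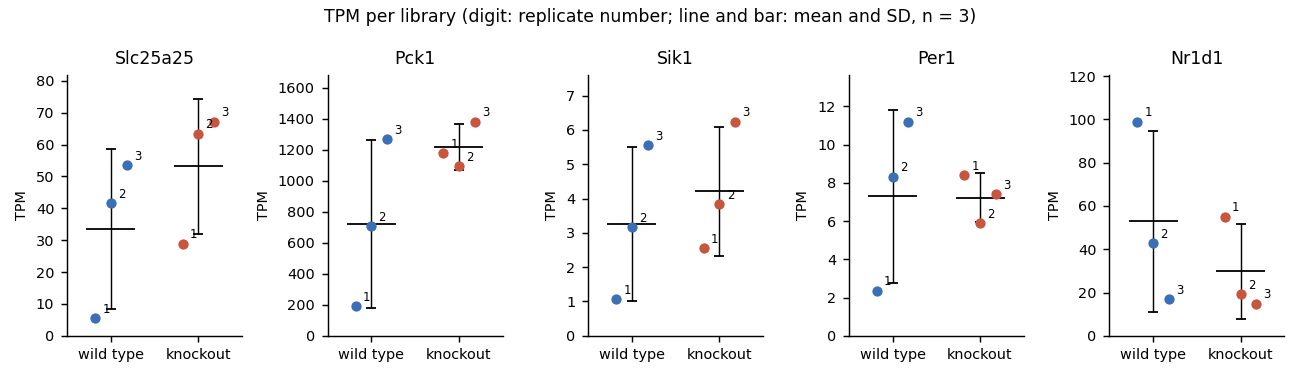
Level of Slc25a25 and of clock and fasting genes in each library, with digits for the replicate number and a line and bar for the mean and SD of 3 libraries. Wild type library 1 is lowest for Slc25a25, Pck1 and Sik1 and highest for Nr1d1; these genes were picked from lists in which others, such as G6pc and Igfbp1, are lowest in wild type library 2.

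Promoter sequences are shown for Slc25a25, the most variable carrier, and for Slc25a33, the one with the smallest p. They come from the RefSeq table for GRCm38.p6, which held 45 windows for 35 of the 45 genes, each from 250 bases before to 50 after a transcript's start. The 250 bases before the start are printed on the strand of the gene, 5′ to 3′, with capitals for TGACGTCA (a cAMP response element), CACGTG (an E-box, bound by clock and other factors), CCAAT and AGGTCA (a core motif of nuclear receptors) on either strand. Slc25a25 has 3 annotated starts, and sequence before the 2 inner ones is printed.
Slc25a25, chr2:32431152-32431401, minus strand: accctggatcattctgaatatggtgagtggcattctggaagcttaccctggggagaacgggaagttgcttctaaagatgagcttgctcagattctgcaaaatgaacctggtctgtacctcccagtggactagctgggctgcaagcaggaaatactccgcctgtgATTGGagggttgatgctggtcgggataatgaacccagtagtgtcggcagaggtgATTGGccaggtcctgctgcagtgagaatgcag
Slc25a25, chr2:32424067-32424316, minus strand: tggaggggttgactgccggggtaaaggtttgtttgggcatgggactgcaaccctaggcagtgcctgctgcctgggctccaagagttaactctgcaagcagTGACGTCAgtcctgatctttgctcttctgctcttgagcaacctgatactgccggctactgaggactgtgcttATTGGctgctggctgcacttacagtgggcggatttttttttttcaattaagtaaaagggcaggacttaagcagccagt
Slc25a33, chr4:149774268-149774517, minus strand: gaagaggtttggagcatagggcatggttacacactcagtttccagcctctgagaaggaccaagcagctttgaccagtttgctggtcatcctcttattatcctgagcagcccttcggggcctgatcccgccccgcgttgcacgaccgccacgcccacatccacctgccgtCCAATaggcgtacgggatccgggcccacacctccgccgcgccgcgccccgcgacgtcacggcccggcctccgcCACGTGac

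The innermost Slc25a25 start has TGACGTCA beginning at position -150, counted from the start, and both windows hold CCAAT on the opposite strand. The Slc25a33 window has CACGTG beginning at position -8 and CCAAT at -81. The 10 bases next to this start are exonic for Slc25a33 in GENCODE M21, and CACGTG lies within them. TGACGTCA was in 2 of the 45 Slc25 windows (4.44%), those of Slc25a25 and Slc25a36, and in 1.79% of all 32851 windows. CACGTG was in 8 (17.8%), beside 7.15% of all windows, and CCAAT in 22 (48.9%), beside 37.4%. AGGTCA was in 4 (8.89%, all windows 16.3%) and its longer form TCAAGGTCA in 0 (all windows 0.423%), which overlap by construction. The remaining motifs were the NRF1 motif in 2 windows (4.44%, all 4.6%), CCGGAAGT in 1 (2.22%, all 3.89%), TCACNCCAC in 1 (2.22%, all 1.24%) and AAGATGGC in 1 (2.22%, all 2.75%). The motifs were chosen after the expression values were seen and both strands were searched. A match is a description of letters and shows no binding.

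Of 67 tested genes that work with the carriers or are related to them, 0 were called by edgeR, beside the same background of 0.00831%. At an unadjusted p under 0.05 there were 3 (4.48%), no more than the 5.15% of all genes. Of these, 2 (Me1 and Acly) are among the 9 enzymes of the malate-aspartate and citrate shuttles. Me1, the cytosolic malic enzyme that makes NADPH for fatty acid synthesis, had 251, 146 and 189 TPM in wild type and 104, 86.9 and 45.4 TPM in knockout-labelled libraries, without overlap. Its log2 fold change in CPM was -1.19 (SE 0.36, edgeR adjusted p = 0.903). Acly, which splits the citrate that Slc25a1 exports, had 135, 66.8 and 130 TPM in wild type and 68.9, 43.5 and 48.8 TPM in knockout-labelled libraries, with overlap, and a log2 fold change of -0.92 (SE 0.30, edgeR adjusted p = 0.918). DESeq2 called both, with negative fold changes, 2 of the 67 partners (2.99%) beside 0.233% of all genes, and each of the other 16 alternatives called 0. Slc25a1 itself lay at -0.15.

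Got2 and Mdh1, the most abundant of these shuttle enzymes, had log2 fold changes of -0.05 and -0.13. In the carnitine shuttle, Cpt1a, which forms the acylcarnitines that Slc25a20 carries, had 83.2, 110 and 109 TPM in wild type and 116, 118 and 115 TPM in knockout-labelled libraries, without overlap. Its log2 fold change was 0.35 (SE 0.12, edgeR adjusted p = 0.903), while Slc25a20 lay at 0.04 and Crot at -0.13. In the urea cycle, where Slc25a15 and Slc25a13 act, 0 of 8 enzymes had an unadjusted p under 0.05, with Ass1 at -0.18 and Arg1 at -0.11.

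The other partner lists held 0 genes with an unadjusted p under 0.05. Of 10 genes of the TIM22 machinery that inserts carriers, Timm8a1 and Timm8b both lay at 0.06. Of 3 outer membrane channels, Vdac1 lay at -0.07 and Vdac3 at -0.09. Of 14 other mitochondrial membrane genes, the pyruvate carrier subunits Mpc1 and Mpc2 lay at -0.06 and -0.04. These 14 include Ucp2 (0.12), Mtch1 (0.09) and Mtch2 (-0.07), which belong to the carrier family under other symbols. Of 10 one-carbon, coenzyme A and thiamine enzymes, Shmt2 lay at 0.12 and Mat1a at -0.05. Of 9 haem and iron-sulphur cluster genes, Alas1, the first enzyme of haem synthesis in liver, lay at 0.54 with an SE of 0.74 and Glrx5 at 0.01.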

How the data were processed

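Messenger RNA was enriched from 3 liver RNA samples per genotype and sequenced after adaptor ligation and circularisation, per the labels' protocols. HISAT, Bowtie2, RSEM and DESeq2 are named in the submitters' processing notes, with versions, build and strand not given in the sources used here. The authors deposited expected counts, FPKM values and TPM values for 15953 genes, per the file headers, and a log2 fold change, p-value and q-value for the comparison of the genotypes; values from these are credited to that table in the text. Between 92.3% and 92.9% of the expected counts of a library were whole numbers within 1e-06. Group means (6 columns) and comparisons of single libraries (9 columns) were not used.

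Expected counts were rounded, filtered with filterByExpr (minimum count 10), scaled by TMM factors of 0.9554 to 1.05 and compared with no block in a robust quasi-likelihood fit of edgeR 4.0.16 under R 4.3.3, and p-values were adjusted by Benjamini and Hochberg over 12033 genes. The biological coefficient of variation was 15.8%. Intervals are at 95%, and floors of 3 counts cover counting error only. Replicates differed by more than sampling noise (chi-square per degree of freedom 16.5 to 81.3). The steps were tested on simulated data. Gene coordinates are from GENCODE M21 (GRCm38). All 45 genes had the same chromosome there as in the deposited table, and 37 the same strand.

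Members and lists were chosen with earlier results of these data known. The rule for named genes took the 12 carriers with the highest mean TPM, those with an unadjusted p under 0.05 and those with an absolute log2 fold change of at least 0.5 at a mean of 1 CPM, 17 in all, and of each partner list the 2 genes with the highest mean TPM and those with an unadjusted p under 0.05. Other genes with values, the same-substrate pairs, the motifs and the clock and fasting lists were chosen after the values were seen. Alternatives were DESeq2 size factors, library totals, upper-quartile factors, DESeq2 1.42.0, no filter, a minimum mean of 5 CPM, limma 3.58.1 by voom or by trend on log2(TPM + 1) and log2(TPM + 0.1), summed FPKM or CPM, a replicate block, each library left out in turn, and wild type libraries 1 and 3 left out together.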

Additional observations from a re-analysis of the deposited data

How the results depend on the processing

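No Slc25 gene was called under any of the 17 alternatives, and of the values of the named carriers 273 kept their direction and 15 turned. The direction turned for Slc25a11 (-0.00, with a leave-one-out range of -0.06 to 0.03, positive without replicate 1 or 2 of either genotype, at 0.02 and 0.01 for wild type and 0.01 and 0.03 for the knockout label), Slc25a15 (leave-one-out range -0.19 to 0.03, the latter without wild type replicate 1, and 0.26 with wild type replicates 1 and 3 both left out), Slc25a20 (-0.04 with library totals, -0.09 and -0.10 with log2(TPM + 1) and log2(TPM + 0.1)), Slc25a22 (-0.00 with library totals, -0.05 and -0.06 with these TPM values) and Slc25a5 (-0.02 with library totals, -0.08 and -0.08 with TPM). The family's median log2 fold change was -0.03 with library totals, -0.08 with either TPM setting, beside medians over all genes of -0.08, -0.11 and -0.13, and 0.01 to 0.07 with 1 library left out. The log2 ratio of the summed level was -0.07 in TPM, -0.02 in FPKM and 0.05 in CPM. Genes called over the whole table numbered 1, but 0 at a mean of at least 5 CPM, 28 with DESeq2, 0 with wild type replicates 1 and 3 both left out, and 1 to 5 with 1 library left out, 5 being without knockout-labelled replicate 1. Leaving out both replicates keeps a single wild type library, which is assumed to vary like the knockout-labelled ones, so its count of 0 says little. Partner genes called numbered 2 with DESeq2. With the replicate number as a block, 34 genes and 0 Slc25 genes were called, and the smallest adjusted p of the family was 0.183, for Slc25a45; deviations of same-numbered samples correlated at 0.32, 0.07 and 0.39, so the numbers were not shown to pair the samples, although every sample correlated best with its own number. Counting depth limits the 6 carriers below the filter.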
